A study of Saccharomyces cerevisiae with 8 samples.

Results

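The AIM, FMP and RRG genes are yeast genes that still carry the name of the screen that found them. They were chosen by name alone, as the rows of the expression table whose gene name is AIM, FMP or RRG followed by a number. This gives 48 of the 5774 listed genes, namely 29 AIM, 15 FMP and 4 RRG genes. AIM stands for altered inheritance of mitochondria, FMP for found in mitochondrial proteome and RRG for required for respiratory growth. The reference annotation places the product of 37 of the 48 in mitochondria by experiment, and gives no such annotation to the other 11 (*AIM2*, *AIM3*, *AIM4*, *AIM6*, *AIM7*, *AIM14*, *AIM20*, *AIM21*, *AIM29*, *AIM33* and *AIM44*).

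Messenger RNA was sequenced from the prototrophic *Saccharomyces cerevisiae* strain CEN.PK. WT (MATa) and *pbp1Δ* cells, in which a hygromycin resistance cassette replaces *PBP1* (*pbp1Δ::Hyg*), were taken in log phase in YPD, a rich medium with glucose, and 3 h after a switch to YPL, the rich medium with lactate that must be respired. Each of the 4 combinations of genotype and medium has 2 libraries, which the labels call biological replicates. The study asked how loss of Pbp1, the yeast ortholog of ataxin-2, alters mRNAs that serve mitochondria.

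When glucose is replaced by a carbon source that must be respired, budding yeast enlarges its mitochondria, and most of the proteins needed are encoded in the nucleus. Many of these mRNAs carry in their 3′ untranslated region a short element bound by Puf3, an RNA-binding protein of the Pumilio family that controls their decay and translation. Pbp1 binds the poly(A)-binding protein and has been linked to Puf3 and to the mRNAs that Puf3 binds.

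The libraries held between 33651287 and 39476235 reads on the listed genes, where 1 read is worth 0.892 to 1.16 normalized counts. The deleted gene *PBP1* had 10926 to 12463 reads in the 4 WT libraries, 0 reads in 3 *pbp1Δ* libraries and 1 read in the other. The strains also differ in genes of the mating type. The summed level of 7 a-specific genes was 14330 to 86076 normalized counts in WT and 1574 to 2197 in *pbp1Δ* libraries, and that of 4 α-specific genes was 1680 to 2215 in WT and 41797 to 160790 in *pbp1Δ* libraries. The loss of *PBP1* and the difference in mating type cannot be told apart in any comparison of genotypes here. *PUF3* mRNA itself did not pass the test between genotypes, with 3604 and 3867 normalized counts in WT and 3589 and 2974 in *pbp1Δ* cells in YPL (log2 fold change −0.19, limma adjusted p = 0.676).

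A Puf3 element, TGTANATA with any base at N, was found on the gene's own strand within 200 nt after the stop codon of 15 of the 48 genes (31.2%). The same search found it in 835 of 5768 listed coding genes (14.5%) and in 357 of 1107 genes with an experimental mitochondrial annotation (32.2%). The reversed letters ATANATGT, searched in the same way, occur in 12.5% of the 48 and 9.92% of all coding genes. *AIM33* has 2 elements and the other 14 genes have 1 each, and the 16 elements start between 7 and 179 nt after the stop codon. The following 8 sites are shown because they belong to the 6 genes with an element that were lowest in *pbp1Δ* cells in YPL and to the 2 that were nearest to WT. Each line gives 30 bases of the S288C reference, R64 assembly, from 5′ to 3′ on the strand of the gene, with the element in capitals.
AIM36, chrXIII:571204-571233, minus strand: aatagcttataTGTATATAtatctggatat
FMP10, chrV:553301-553330, plus strand: tagctgtaccaTGTAAATAatacatatatg
AIM10, chrV:332328-332357, plus strand: tcttgtatacaTGTATATAacaccaaaata
AIM22, chrX:353629-353658, plus strand: ttcaattcactTGTAAATAacgtaggtaaa
AIM32, chrXIII:174142-174171, plus strand: catatattcctTGTACATAtatttattaag
RRG9, chrXIV:246404-246433, minus strand: acgaaacttctTGTAGATAaaggaacatat
RRG1, chrIV:581835-581864, plus strand: ttccatttctaTGTAAATAgtcactcgtat
AIM25, chrX:616307-616336, minus strand: taaaagaattcTGTAAATAcatatttgact
The variant TGTAAATA occurs at *FMP10* and *AIM22*, which were called lower in *pbp1Δ* cells in YPL, and also at *RRG1* and *AIM25*, which were not. A C in either of the 2 bases before the element was present in 11 of the 15 genes, of which 9 were called lower in YPL, with a median log2 fold change of −0.86. It was missing in *RRG1*, *AIM24*, *AIM36* and *AIM39*, of which *AIM36* was called, with a median of −0.57. *AIM36*, without a C, was the lowest of the 15 genes in YPL. The difference between these groups was not tested, and the same split was not made over all genes with an element.

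In YPL, 12 of the 48 genes (25%) were lower in *pbp1Δ* than in WT cells and none was higher, against 4.17% lower and 0.521% higher of all 5759 genes tested. A gene was called when its limma adjusted p, over all genes, was under 0.05 and its absolute log2 fold change over 0.58. The 12 are *AIM36*, *FMP10*, *AIM10*, *AIM22*, *AIM32*, *RRG9*, *AIM18*, *AIM11*, *FMP30*, *AIM9*, *AIM33* and *FMP25*, and they were 1.62-fold to 3.04-fold lower in *pbp1Δ* cells. Of the remaining 36, 21 lay below 0 and 15 above, so that the median log2 fold change of the 48 was −0.39, beside −0.0056 over all genes. Genes with a mitochondrial annotation that are not among the 48 were called lower in 192 of 1068 cases, with a median of −0.13. The YPL libraries of both genotypes did not overlap in 27 genes that were lower (30.1% of all genes) and 12 that were higher (27.5%). Normalized counts are relative values, scaled by 1 factor per library, from the RNA of a whole culture. Less of an mRNA in every cell and fewer cells that contain it cannot be told apart.

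**Figure D1:**
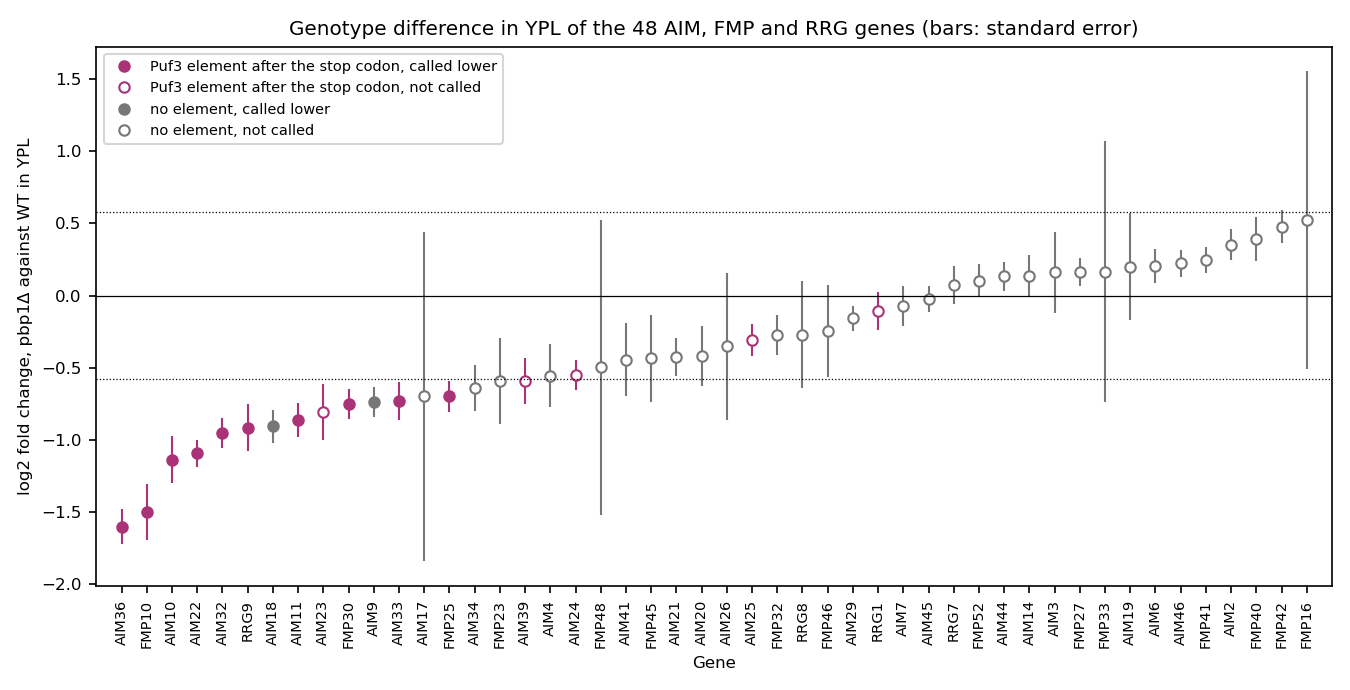
Log2 fold change of pbp1Δ against WT cells in YPL (y axis) for the 48 genes ordered by that value (x axis), with bars of 1 standard error; filled points were called lower, coloured points have a Puf3 element, and dotted lines mark the threshold of 0.58. The called genes lie between −1.60 and −0.70. All 15 genes with an element lie below 0, whereas genes without an element lie on both sides. Of all 834 tested genes with an element, which are not shown, 608 lie below 0.

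*AIM36* and *FMP10* were the lowest. *AIM36* (YMR157C; R64 chromosome XIII, 571277 to 572044, minus strand) encodes a mitochondrial protein whose loss reduces respiratory growth, and *FMP10* (YER182W; chromosome V, 552525 to 553259, plus strand) a mitochondrial protein of unknown function. In YPL the WT libraries held 6763 and 7272 normalized counts of *AIM36*, and the *pbp1Δ* libraries 2101 and 2534. Both *pbp1Δ* values lie far below both WT values, with group means of 7018 ± 359 and 2318 ± 306 (SD, n = 2). The log2 fold change was −1.60 ± 0.12 (standard error; limma adjusted p = 0.00157), a 3.04-fold lower level. *FMP10* had 8011 and 9516 normalized counts in WT and 2734 and 3482 in *pbp1Δ* cells, with no overlap. Its level was 2.83-fold lower (log2 fold change −1.50 ± 0.19, adjusted p = 0.0078).

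Among the 6 genes for the mitochondrial genome, its RNA and its translation, 2 were called lower, *AIM10* and *RRG9*, and the median log2 fold change was −0.54. Beside this, 4.17% of all genes were called lower, and 192 of 1068 with a mitochondrial annotation outside the 48. *AIM10* (YER087W; chromosome V, 330576 to 332306, plus strand) encodes a protein that resembles prolyl-tRNA synthetases. It had 2500 and 2702 normalized counts in WT and 1068 and 1303 in *pbp1Δ* cells in YPL, a 2.20-fold lower level (log2 fold change −1.14 ± 0.16, adjusted p = 0.0111). *RRG9* (YNL213C), which is needed to maintain mitochondrial DNA, had 3672 and 3729 normalized counts in WT and 1909 and 2007 in *pbp1Δ* cells. Both genotypes are tightly grouped and well apart, and the log2 fold change was −0.92 ± 0.16 (adjusted p = 0.0269). *AIM23*, the mitochondrial translation initiation factor 3, had 2217 and 2619 normalized counts in WT and 1263 and 1498 in *pbp1Δ* cells. These values do not overlap, yet the change of −0.81 ± 0.19 did not pass the adjusted test (adjusted p = 0.0766). *RRG1*, a factor for processing the 5′ ends of mitochondrial tRNAs, had 1284 and 1406 normalized counts in WT and 1149 and 1352 in *pbp1Δ* cells, so that the genotypes overlap (log2 fold change −0.11). Its partner in that processing, *RRG8*, and *RRG7*, of unknown function, did not pass the test either, at −0.27 and 0.08.

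Of the 12 genes for respiration, metabolism and redox control, 5 were called lower (*AIM22*, *AIM32*, *FMP30*, *AIM33* and *FMP25*), beside 4.17% of all genes. Their median log2 fold change, over the 12, was −0.41. *AIM22* (YJL046W; chromosome X, 352386 to 353615, plus strand) encodes a lipoate-protein ligase that attaches lipoic acid to subunits of the pyruvate and 2-oxoglutarate dehydrogenases. It had 4555 and 4647 normalized counts in WT and 2041 and 2274 in *pbp1Δ* cells in YPL. The replicates of each genotype differ little beside the gap between them, and the log2 fold change was −1.09 ± 0.10 (adjusted p = 0.00264). *AIM32* (YML050W; chromosome XIII, 173139 to 174074, plus strand) encodes a thioredoxin-like iron-sulfur protein of mitochondrial redox quality control. It had 2893 and 3011 normalized counts in WT and 1553 and 1492 in *pbp1Δ* cells (log2 fold change −0.96 ± 0.10, adjusted p = 0.00425).

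*FMP30* (YPL103C) is related to the phospholipase that releases N-acylethanolamines and is linked to cardiolipin levels. It had 2710 and 2688 normalized counts in WT and 1642 and 1566 in *pbp1Δ* cells (−0.75 ± 0.11, adjusted p = 0.0103). *AIM33* (YML087C), similar to cytochrome b5 reductases, has no mitochondrial annotation but 2 Puf3 elements. It had 6112 and 6090 normalized counts in WT and 3565 and 3785 in *pbp1Δ* cells (−0.73 ± 0.13, adjusted p = 0.0314). *FMP25* (YLR077W), an assembly factor of respiratory complex III, had 5999 and 6272 normalized counts in WT and 3480 and 4105 in *pbp1Δ* cells (−0.70 ± 0.11, adjusted p = 0.0149). In each of the 3 genes both *pbp1Δ* libraries lie below both WT libraries, as in 30.1% of all genes tested. *AIM24*, needed for the integrity of the MICOS complex that shapes the inner membrane, had 2054 and 2158 normalized counts in WT and 1446 and 1429 in *pbp1Δ* cells. It passed the adjusted p but not the fold threshold (−0.55 ± 0.10, adjusted p = 0.0334), and its reading frame overlaps YJR079W, with which it may share reads.

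The other 6 genes of this group showed no call in YPL. *AIM45*, the ortholog of the electron transfer flavoprotein alpha subunit, showed a genotype difference near 0 (log2 fold change −0.02), with 8743 and 8732 normalized counts in WT and 8983 and 8212 in *pbp1Δ* cells. *FMP40*, which attaches AMP to mitochondrial proteins, lay above 0 with 3493 and 4493 normalized counts in WT and 5310 and 5077 in *pbp1Δ* cells (log2 fold change 0.39, adjusted p = 0.25). *FMP32*, linked to proline use, *FMP41*, *FMP46*, a predicted thioredoxin-fold protein, and *AIM14*, an NADPH oxidase of the endoplasmic reticulum, ranged from −0.27 to 0.25.

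None of the 10 genes for actin, the bud neck, other membranes and the nucleus was called in YPL, where 6 lay below 0 and 4 above. Of the 10, 3 had an unadjusted p under 0.05 in limma, beside 1026 of all 5759 genes. *FMP27*, *FMP42*, *FMP45* and *FMP48* of this group also carry the mitochondrial annotation. *AIM3*, *AIM7* and *AIM21*, regulators of actin filaments and patches, had log2 fold changes of 0.16, −0.07 and −0.43. *AIM4*, found at the nuclear pore, *AIM20*, *FMP27*, a lipid transfer protein of the Vps13 type, *FMP45* and *FMP48* ranged from −0.56 to 0.16. *AIM44*, which acts at the bud neck, had 2331 and 2382 normalized counts in WT and 2750 and 2428 in *pbp1Δ* cells. *FMP42*, a membrane protein of the vacuole, had 3743 and 3474 normalized counts in WT and 5514 and 4570 in *pbp1Δ* cells. Its libraries do not overlap, and the change of 0.48 ± 0.11 did not pass the adjusted test (adjusted p = 0.0784).

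Of the remaining 20 genes, whose products are mostly mitochondrial and less well known, 5 were called lower, beside 4.17% of all genes. Besides *AIM36* and *FMP10* these are *AIM18* (YHR198C), *AIM11* (YER093C-A) and *AIM9* (YER080W). Each of the 12 called genes except *AIM11*, which has 2 coding segments, is a single coding segment. *AIM18* had 5159 and 5887 normalized counts in WT and 2837 and 3047 in *pbp1Δ* cells in YPL (log2 fold change −0.91 ± 0.11, adjusted p = 0.00721). *AIM11* had 3488 and 3982 normalized counts in WT and 2103 and 1999 in *pbp1Δ* cells (−0.86 ± 0.12, adjusted p = 0.00906). *AIM9* had 8803 and 9851 normalized counts in WT and 5730 and 5461 in *pbp1Δ* cells (−0.74 ± 0.10, adjusted p = 0.0102). No library of one genotype reaches the range of the other in these 3 genes. The same held for all 12 called genes and for 30.1% of all genes tested. It comes from the same libraries as the calls and adds no support to them. The 15 genes of this group that were not called ranged from −0.70 for *AIM17* to 0.52 for *FMP16*. *AIM18* and *AIM9* are the called genes without a Puf3 element in the 200 nt searched.

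*AIM18* and *AIM46* stand side by side on chromosome VIII, 209 bases apart on the same strand, and both encode inner membrane hemoproteins with a chalcone isomerase domain. Whereas *AIM18* was lower in *pbp1Δ* cells, *AIM46* had 3593 and 4008 normalized counts in WT and 4441 and 4422 in *pbp1Δ* cells in YPL (log2 fold change 0.22, adjusted p = 0.285). Neither of the neighbours has a Puf3 element. The difference between the neighbours was not tested.

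**Figure D2:**
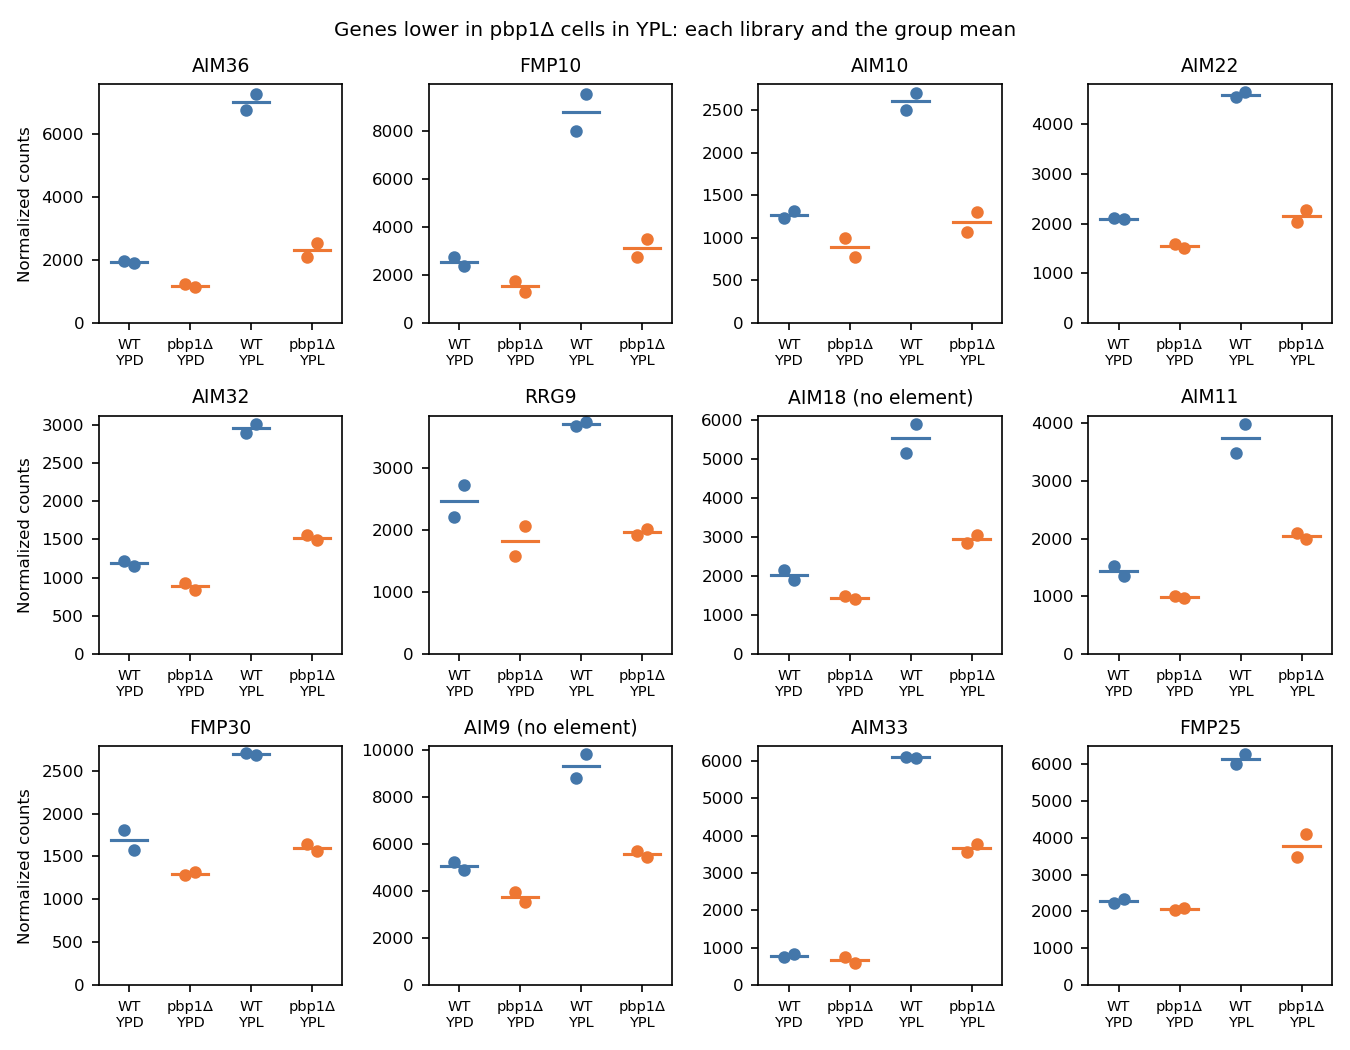
Normalized counts (y axis, from 0, scaled for each gene) of the 12 genes called lower in YPL, in each of the 8 libraries (points) and as group means (lines), with WT in blue and pbp1Δ in orange. In YPL both pbp1Δ points lie below both WT points for every gene. In YPD the gap on this linear scale is smaller, and for AIM33 the genotypes overlap. The genes were chosen by their difference in YPL, so a smaller gap in YPD is partly given by that choice. For none of them was the difference between the genotype effects in the 2 media called.

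The genes with a Puf3 element carried most of the calls in YPL. Of the 15 genes with an element, 10 were called lower and all 15 lay below 0, from −1.60 to −0.11, with a median of −0.81. Of the 33 without an element, 2 were called and 18 lay below 0, with a median of −0.07. Over all genes tested, 199 of 834 with an element and 41 of 4919 without were called lower, with medians of −0.22 and 0.02. Of these 834 and 4919 genes, 608 and 2316 lay below 0. Besides *AIM23*, *AIM24* and *RRG1*, the genes with an element that were not called are *AIM39*, at −0.59 (adjusted p = 0.113), and *AIM25*, which has been linked to mitophagy and stress, at −0.31 (adjusted p = 0.223). *AIM25* had 3095 and 3374 normalized counts in WT and 2452 and 2787 in *pbp1Δ* cells, without overlap.

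The number of calls in YPL depended on each library of that medium. With any library of that medium left out, fewer of the genes were called lower, and also fewer of all genes tested. Each of these fits leaves a single library in a group, and the loss of calls was not particular to these genes. Without the first or the second WT library in YPL, their median log2 fold change was −0.49 and −0.25, beside −0.39 with all libraries. Without the first or the second *pbp1Δ* library in YPL, this median was −0.22 and −0.49. *AIM22* and *AIM36* were called under every alternative tried, and none of the 12 changed direction. *FMP42* was called higher without the second *pbp1Δ* library. Fitted on the 4 YPL libraries alone, 16 genes were lower, beside 374 of all 5759 genes. The additional genes were *AIM17*, *AIM23*, *AIM34* and *AIM39*.

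In YPD, none of the 48 genes was called in either direction by limma, against 0.868% lower and 0.104% higher of all genes. When the replicate number within each medium was added to the fit, 4 of the 48 were called lower, beside 192 of all 5759 genes. At an unadjusted p under 0.05 there were 12 of the 48 genes, beside 472 of all 5759. The median log2 fold change was −0.13 over the 48, beside −0.02 over all genes. It was −0.42 over the 15 genes with an element, of which 13 lay below 0. Over all 834 tested genes with an element it was −0.12, and 594 lay below 0. *AIM36* had 1981 and 1918 normalized counts in WT and 1239 and 1138 in *pbp1Δ* cells in YPD. Its libraries do not overlap, and the log2 fold change was −0.71 ± 0.12 (adjusted p = 0.07). *FMP10* had 2733 and 2369 normalized counts in WT and 1745 and 1305 in *pbp1Δ* cells (−0.75 ± 0.19, adjusted p = 0.207). *AIM22* had 2106 and 2086 normalized counts in WT and 1586 and 1516 in *pbp1Δ* cells (−0.43 ± 0.10, adjusted p = 0.14). In 11 of the 12 genes called in YPL, both *pbp1Δ* libraries were also the lower ones in YPD, and the exception is *AIM33*. Over the 48 genes the YPD libraries did not overlap in 15 that were lower (17.8% of all genes) and 7 that were higher (13.7%).

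The difference between the genotype effects in YPL and in YPD, the interaction, was called in none of the 48 genes by limma, against 0.0521% lower and 0.0174% higher of all genes. With the replicate number within each medium in the fit, 10 of the 48 were called, beside 201 lower and 159 higher of all 5759 genes. At an unadjusted p under 0.05 there were 10 of the 48 genes, beside 404 of all 5759, and the median of the 48 was −0.23. The smallest unadjusted values were those of *AIM36*, at −0.89 (unadjusted p = 0.00165, adjusted p = 0.412), and *AIM22*, at −0.66 (unadjusted p = 0.00232, adjusted p = 0.424). All 15 genes with an element lay below 0, with a median of −0.50, and the 33 without had a median of 0.04. Over all genes tested, 575 of 834 with an element and 2221 of 4919 without lay below 0, with medians of −0.15 and 0.03.

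The switch to lactate raised the mRNA of many of the genes. In WT cells 27 of the 48 were called higher in YPL than in YPD and 1 lower, against 19.3% higher and 15.7% lower of all genes, and the median log2 fold change was 0.78. In *pbp1Δ* cells 19 were called higher and 3 lower, against 18.1% and 15.1% of all genes, and the median was 0.52. Of the genes with a mitochondrial annotation outside the 48, 45.6% were called higher in WT and 37.9% in *pbp1Δ* cells. The shares of the 48 were 56.25% and 39.58%. Of the 27 genes, 18 were also called higher in *pbp1Δ* cells, and *AIM46* was called there and not in WT cells, at 0.63 and 0.50. All 12 genes called lower in *pbp1Δ* cells in YPL were among the 27. With every library centred on its own median, the median of all genes in this comparison moves to −0.13 in WT and −0.12 in *pbp1Δ* cells. The calls over all genes then turn from 1110 higher and 907 lower to 941 and 1167 in WT cells, and from 1045 and 871 to 841 and 1174 in *pbp1Δ* cells. Of the 48 genes, 24 and 18 were then called higher, without *AIM2*, *FMP30* and *RRG9* in WT and *AIM46* in *pbp1Δ* cells. This comparison and that of the genotypes share the WT libraries in YPL, so that the values are given side by side without a test of their relation. The libraries of both media did not overlap in 36 higher and 5 lower genes in WT cells (38.5% and 38% of all genes) and in 33 higher and 4 lower genes in *pbp1Δ* cells (37.6% and 35.9%).

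**Figure D3:**
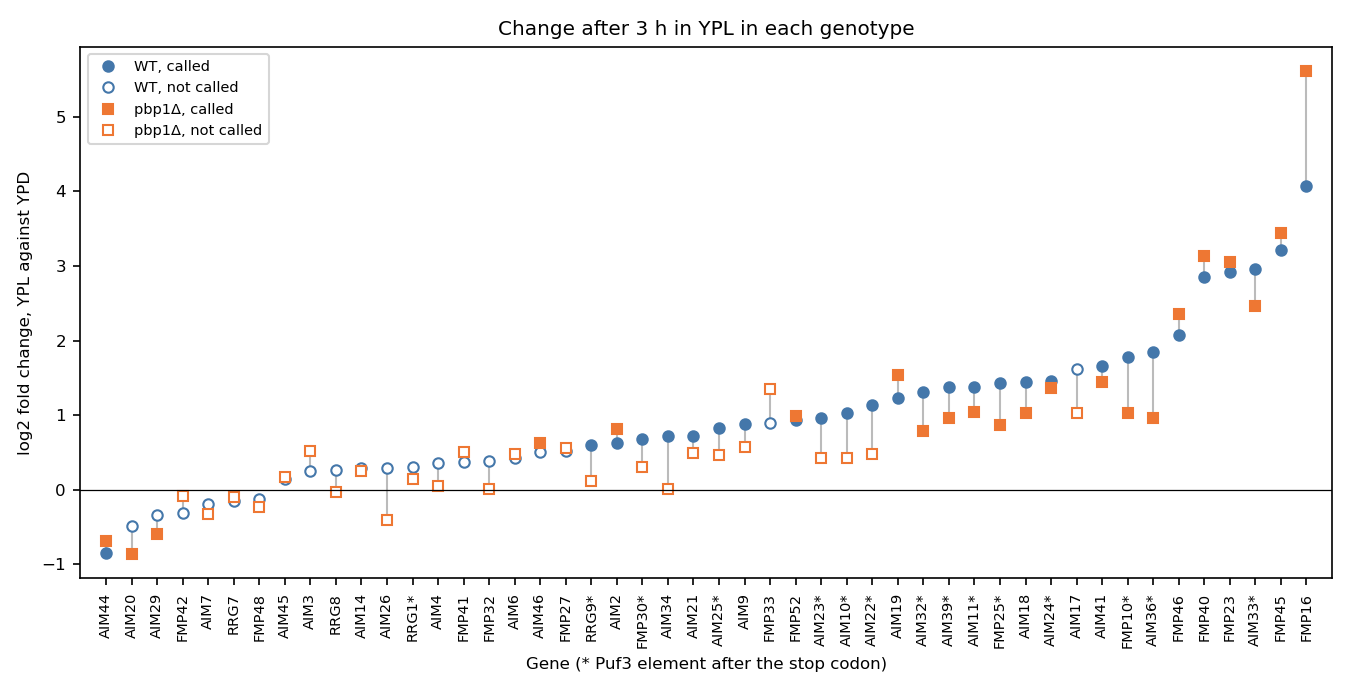
Log2 fold change of YPL against YPD (y axis) in WT cells (blue circles) and pbp1Δ cells (orange squares) for the 48 genes ordered by the WT value (x axis), with filled symbols for called changes and an asterisk for genes with a Puf3 element. The orange square lies below the blue circle for all 15 genes with an element. The change was likewise lower in pbp1Δ cells for 575 of all 834 tested genes with an element, which are not shown. FMP16, FMP45, AIM33, FMP23 and FMP40 stand at the right with the highest values.

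Most of the genes with an element were called higher in both genotypes or in WT cells alone. All 15 lay above 0 in *pbp1Δ* cells too, beside 552 of all 834 tested genes with an element, so a missing call there does not mean no rise. Of the 15, 14 were called higher in WT cells, with a median of 1.31, and 8 in *pbp1Δ* cells, with a median of 0.78. Over all 834 tested genes with an element, 351 (42.1%) and 243 (29.1%) were called higher. For *AIM36* the change was 1.85 ± 0.12 in WT and 0.96 ± 0.12 in *pbp1Δ* cells (limma adjusted p = 9.93e-05 and 0.00121). The level in *pbp1Δ* cells in YPL, 2101 and 2534 normalized counts, stood beside 1981 and 1918 in WT cells still in YPD, a difference that was not tested. *AIM22* changed by 1.13 in WT and 0.47 in *pbp1Δ* cells, the latter below the fold threshold. *AIM10* changed by 1.03 in WT cells and showed 0.42 in *pbp1Δ* cells (adjusted p = 0.0764), and *RRG9* by 0.60 in WT cells with 0.12 in *pbp1Δ* cells (adjusted p = 0.58). In *AIM10* the *pbp1Δ* libraries in YPL, at 1068 and 1303, overlap with WT cells in YPD, at 1232 and 1313. *AIM24* rose in both, by 1.46 and 1.37. Of the 33 genes without an element, 13 were called higher in WT and 11 in *pbp1Δ* cells, with medians of 0.50 and 0.51.

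*AIM34*, a mitochondrial protein of unknown function without an element, had 1011 and 1274 normalized counts in WT cells in YPD and 1924 and 1812 in YPL. In *pbp1Δ* cells it had 1070 and 1327 in YPD and 1183 and 1213 in YPL. The WT libraries of the media are apart and the *pbp1Δ* libraries overlap, with log2 fold changes of 0.72 (adjusted p = 0.0112) and 0.01 (adjusted p = 0.972). The interaction for *AIM34* was −0.71 (unadjusted p = 0.0183), which did not pass the adjusted test.

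The 5 highest rises in WT cells were those of *FMP16*, *FMP45*, *AIM33*, *FMP23* and *FMP40*, of which *AIM33* alone has an element. *FMP40* had 596 and 505 normalized counts in WT cells in YPD and 3493 and 4493 in YPL, and 602 and 583 against 5310 and 5077 in *pbp1Δ* cells. The media do not overlap in either genotype, and the changes were 7.21-fold and 8.75-fold (limma adjusted p = 5.34e-05 and 3.73e-05). *AIM33* had 740 and 831 normalized counts in WT cells in YPD and 6112 and 6090 in YPL, a 7.77-fold change (adjusted p = 3.41e-05). In *pbp1Δ* cells *AIM33* had 743 and 597 in YPD and 3565 and 3785 in YPL, a 5.51-fold change (adjusted p = 5.37e-05). Of the 12 genes called lower in *pbp1Δ* cells in YPL, *AIM33* had the largest rise in WT cells.

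*FMP45*, a membrane protein related to Sur7 and needed in sporulation, had 337 and 257 normalized counts in WT cells in YPD and 2266 and 3291 in YPL. In *pbp1Δ* cells it had 146 and 234 in YPD and 2295 and 1783 in YPL. The log2 fold changes were 3.21 and 3.45 (adjusted p = 0.000312 and 0.000261), both well beyond the spread of the libraries. *FMP23*, linked to iron and copper homeostasis, changed by 2.92 and 3.05, and *FMP46* by 2.08 and 2.36. *FMP52*, a protein of the outer mitochondrial membrane, had 7071 and 8016 normalized counts in WT cells in YPD and 13757 and 15080 in YPL. Both media are far apart beside the replicates. Its changes of 0.94 in WT and 1.00 in *pbp1Δ* cells were close, and its genotype difference in YPL was 0.10.

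By role, 8 of the 12 genes for respiration, metabolism and redox control were called higher in WT cells and 6 in *pbp1Δ* cells, beside 19.3% and 18.1% of all genes. Of the 6 genes for the mitochondrial genome, RNA and translation, 3 were called higher in WT cells (*AIM10*, *AIM23* and *RRG9*) and none in *pbp1Δ* cells. There 1 of the 6 had a limma unadjusted p under 0.05, beside 3135 of all 5759 genes. Of the 10 genes for actin, bud neck, membranes and nucleus, 2 were called higher in WT cells (*AIM21* and *FMP45*) and *FMP45* alone in *pbp1Δ* cells. Of the other 20 genes, 14 were higher in WT and 12 in *pbp1Δ* cells. Without the first *pbp1Δ* library in YPD, *AIM10*, *AIM3*, *AIM21* and *AIM9* were called higher in *pbp1Δ* cells as well. Without both first YPD libraries, an alternative chosen after seeing the data, *AIM10* and *AIM23* were called higher in *pbp1Δ* cells and *RRG9* was no longer called in WT cells, so that 2 genes for the mitochondrial genome, RNA and translation were called in each genotype. The difference in the number of calls between genotypes was not tested.

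Few genes fell after the switch. *AIM44*, the bud neck protein, had 4132 and 4340 normalized counts in WT cells in YPD and 2331 and 2382 in YPL, and 4003 and 4353 against 2750 and 2428 in *pbp1Δ* cells. Both genotypes show the lower level in YPL without overlap, and the log2 fold changes were −0.85 and −0.69 (limma adjusted p = 0.00088 and 0.00223). *AIM20*, a vacuolar protein, was called lower in *pbp1Δ* cells at −0.86 (adjusted p = 0.0155), with 1994 and 2382 normalized counts in YPD and 1075 and 1334 in YPL. *AIM29*, which assists the folding of a translation elongation factor, was called lower in *pbp1Δ* cells at −0.59 (adjusted p = 0.00222), with 3240 and 3308 against 2221 and 2134. In WT cells *AIM20* and *AIM29* stood at −0.49 and −0.33 and were not called. Without the second *pbp1Δ* library in YPD only *AIM44* of the 3 was called lower in *pbp1Δ* cells, *AIM20* was lost without the first and *AIM29* without the second *pbp1Δ* library in YPL. Omission of single libraries left 22 to 27 genes called higher in WT cells and 18 to 23 in *pbp1Δ* cells.

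The order of the genes by level also changed. Per kilobase of coding sequence, *FMP52* was the highest of the 48 in WT cells in both media, with 10838 normalized counts in YPD and 20716 in YPL. *FMP16*, a small protein of the stress response, stood in the 2nd place in YPL with 17791, while its YPD libraries, at 794 and 108 normalized counts before the division by length, are too far apart to place it in that medium. *FMP10* moved from the 12th to the 4th place, with 3471 and 11923, and *AIM36* from the 19th to the 6th, with 2538 and 9137. *FMP40*, the lowest in YPD with 266, stood in the 37th place in YPL with 1932. *AIM26* was the lowest in YPL, with 313, and its 152 and 53 normalized counts in WT cells in YPD show how far the replicates of a low gene can differ.

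The replicates in YPD differed strongly for a few of the genes, and in the same direction in both genotypes. *AIM17* showed 10096 and 1371 normalized counts for WT cells in YPD and 9315 and 1266 in the *pbp1Δ* libraries. *FMP16* had 794 and 108 in WT and 319 and 65 in *pbp1Δ* cells in YPD. *FMP48*, a protein kinase, had 1457 and 224 in WT and 1010 and 187 in *pbp1Δ* cells. The first library is the high one each time, as it also is for *FMP33*, with 736 and 124 in WT and 491 and 125 in *pbp1Δ* cells. In YPD the replicates were more than 2-fold apart in 5 of the 48 genes in WT (with *AIM26*) and in 4 in *pbp1Δ* cells, but in none in YPL, where the largest factor was 1.54. The median factor over the 48 was 1.13 and 1.14 in YPD and 1.08 and 1.11 in YPL.

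**Figure D4:**
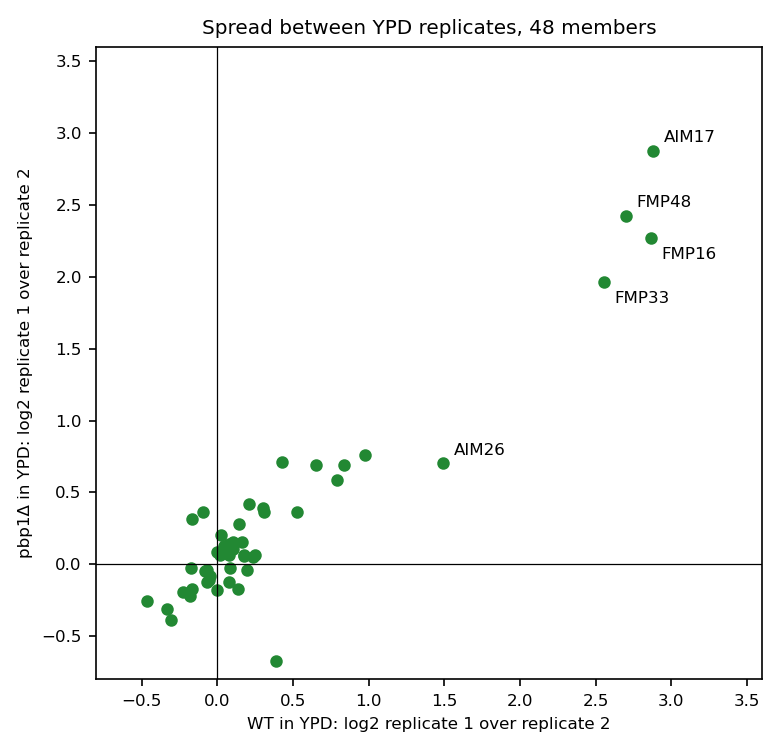
Log2 ratio of the first to the second YPD library in WT cells (x axis) and in pbp1Δ cells (y axis), 1 point for each of the 48 genes. AIM17, FMP48, FMP16 and FMP33 lie at the upper right, between 1.97 and 2.88 on both axes, while most genes lie near 0.

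Since the fit pools the spread of the 4 groups for each gene, the standard errors of these genes are large also in YPL, where their own replicates are close. *AIM17* had 9981 and 13038 normalized counts in WT and 6992 and 7054 in *pbp1Δ* cells in YPL, without overlap, but a log2 fold change of −0.70 ± 1.14 (adjusted p = 0.823). *FMP16* had 4243 and 5791 in WT and 6680 and 7592 in *pbp1Δ* cells in YPL, again without overlap (0.52 ± 1.03, adjusted p = 0.854). For *FMP16* the change from YPD to YPL was 4.07 ± 1.03 in WT and 5.61 ± 1.03 in *pbp1Δ* cells (adjusted p = 0.0183 and 0.0055), and the call in WT cells was lost when either WT library in YPL was left out. The calls in WT cells of *AIM19*, *AIM34* and *RRG9* were lost with either of these libraries as well, and that of *AIM23* without the second. Leaving out a YPD library of WT cells ended the calls of *AIM34* and *RRG9* (first library) and of *AIM19* and *FMP30* (second library), and *AIM19* was also lost in *pbp1Δ* cells without the second YPD or either YPL library of that strain.

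Another 28 genes found by the same screens have since been renamed, and the reference lists their AIM, FMP or RRG names as synonyms. In YPL 10 of the 28 were called lower in *pbp1Δ* cells and none higher, with a median log2 fold change of −0.52, beside 4.17% lower of all genes and 203 of 1105 with a mitochondrial annotation. A Puf3 element was present in 16 of the 28, and all 10 called genes are among these. None of the 12 without an element was called, and 3 of them had a limma unadjusted p under 0.05, beside 1026 of all 5759 genes. The lowest is *MIA40* (*FMP15*), the oxidoreductase that imports cysteine-rich proteins into the intermembrane space. It had 29792 and 33362 normalized counts in WT and 10018 and 13607 in *pbp1Δ* cells in YPL, without overlap (log2 fold change −1.43 ± 0.15, limma adjusted p = 0.00396). *CCM1* (*RRG2*), needed for mitochondrial RNA processing and the small mitoribosomal subunit, followed at −1.19, with 7831 and 8008 against 3242 and 3731. The other 8 were *MZM1* at −1.09, *RCF1* at −1.06, *MIC12* at −1.05, *HER2* at −1.03, *MIC60* at −0.87, *COA3* at −0.79, *RDL2* at −0.73 and *MIC19* at −0.72. *MIC60*, *MIC12* and *MIC19* are subunits of the MICOS complex, and *MZM1*, *RCF1* and *COA3* serve the assembly of respiratory complexes III and IV. In contrast *MPC3* (*FMP43*), a subunit of the mitochondrial pyruvate carrier without an element, rose 24.8-fold in WT and 40.7-fold in *pbp1Δ* cells, and its genotype difference in YPL was −0.01. With the renamed genes the switch raised 22 of 28 in WT and 16 of 28 in *pbp1Δ* cells, beside 19.3% and 18.1% of all genes and 46.2% and 38.2% of those with a mitochondrial annotation.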

How the data were processed

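Poly(A) RNA of 8 cultures was sequenced by the authors. Per the labels and the study's methods, the authors trimmed the reads (Trim Galore), aligned them to the R64 genome (STAR 2.7.3a), counted uniquely mapped reads per gene (featureCounts, Subread 1.6.3) and normalized them with DESeq2 (version 3.16 in the submitters' processing notes). The deposited values are normalized counts (a linear signal, with 1 scaling factor per library), and 100% of them were whole multiples of 1 number per library (tolerance 0.01), taken as 1 read. The strand setting of the counting is not given in the sources used here. Of the 48 genes only *AIM24* overlaps another annotated gene.

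All 5774 identifiers matched the R64 annotation. A pseudocount of 1 was added before taking log2, and genes whose mean was under 10 were dropped, which kept 5759 genes and all of the 48. They were fitted by group (4 groups, 1 model) in limma 3.58.1 (R 4.3.3) with a trend in the prior variance. Fold changes and standard errors are on this scale. P-values were adjusted by Benjamini-Hochberg over all genes, and the thresholds of a call were 0.05 for the adjusted p and 0.58 for the absolute log2 fold change (interaction: adjusted p alone). With 2 libraries against 2, an exact permutation test cannot go below p = 0.333 (two-sided), so that all tests rest on the model. The fit was tested on counts simulated independently for each library, with the same setting of the spread in all groups. The simulation holds no difference shared by YPD replicates and no wider spread in YPD, so it does not cover these features of the data. Tables and plots were made with Python 3.11.15, pandas 2.3.3 and matplotlib 3.10.9.

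The elements were searched in the reference, on the gene's strand. CEN.PK sequence was not used here. The members and gene lists were chosen with earlier results of these data known. Every member may be named. Outside them *PBP1*, *PUF3* and the mating type genes are given, and the renamed genes by counts, with values for those called in YPL. *MPC3* was named after its values were seen. Alternatives were run for the pseudocount (0.5 and 8), the filter (100, or no filter), scaling, block, trend, fold threshold, libraries and motif.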

Additional observations from a re-analysis of the deposited data

How the results depend on the processing

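No called gene and no median of the 48 changed direction under the alternatives tried. The calls of single genes between genotypes in YPL held in 195 of 228 values (*AIM22* and *AIM36* under every setting). All 33 losses arose where a YPL library was left out. Other settings, such as the pseudocounts, the filters or an omitted YPD library, leave the YPL fold changes almost unchanged. The high share held is thus largely given by the choice of settings. For the switch, the calls held in 510 of 532 values in WT and in 409 of 418 in *pbp1Δ* cells. Omitting single libraries, the count lower in YPL ranged from 2 to 12, that higher from 0 to 1 and the median log2 fold change from −0.49 to −0.22. In YPD the median ranged from −0.32 to −0.052. For the switch, the count lower ranged from 1 to 2 in WT, with a median from 0.70 to 0.90, and from 1 to 3 in *pbp1Δ* cells. Centring moved the median to −0.32 for the genotypes in YPL and to 0.65 for the switch in WT. With the adjusted p alone, 2 genes fell in WT cells (*AIM29* added). The motif TGTAAATA alone left 8 genes with an element. With a window of 100 nt there were 14.

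The replicate numbers were used as a block in 2 ways. Over all 8 libraries the block gave the same 12 genes in YPL, 0 in YPD and 0 for the interaction. Of all 5759 genes it gave 254 lower in YPL, 75 lower in YPD, and 3 lower and 1 higher for the interaction. A block within each medium gave 17 lower genes in YPL, 4 in YPD (*AIM36*, *FMP10*, *FMP16* and *FMP23*) and 10 for the interaction (*AIM17*, *AIM22*, *AIM23*, *AIM32*, *AIM34*, *AIM36*, *FMP10*, *FMP16*, *FMP25* and *RRG9*). Over all 5759 genes this block gave 401 lower in YPL and 192 lower in YPD. For the interaction it gave 201 lower and 159 higher of all genes. The labels do not say what a number shares. The replicate differences correlated at 0.85 between the genotypes in YPD, 0.24 in YPL and −0.22 between WT cells in YPD and YPL. Libraries of the same number thus shared a difference in YPD, and weakly so in YPL. Since the labels name no pairs, the main fit leaves this shared difference in the spread. Chosen after seeing the data, leaving out both first YPD libraries gave 2 genes lower after the switch in WT and a median of 0.90. Leaving out both second ones gave 2 as well, and 1 gene (*FMP16*) lower in YPD and 1 (*FMP16*) called in the interaction. Either gave 16 lower genes in YPL. The cause of these changes was not tested. The planned edgeR and DESeq2 fits were not run: the reads recovered from the normalized counts, used here for depth and *PBP1* alone, could be checked on few low values. With 2 libraries a group, each call leans on the spread of all 4 groups.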
